A study of Mus musculus with 10 samples.

Results

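The genes described here are 10 cell cycle kinases, kinase inhibitors and their close partners, out of 28125 genes of the scRNA-seq matrix and 30670 genes of the scATAC-seq matrix. They are the kinases Cdk1, Cdk2, Cdk4 and Cdk6, the kinase-binding subunit Cks1b, the inhibitors Cdkn1a, Cdkn1b, Cdkn2c and Cdkn2d, and the inhibitory kinase Wee1. They were chosen by name, though with earlier results of these data known. All 10 were found in both matrices and passed the filter on low RNA values, a mean of at least 0.05 UMIs per 10000 over the 13 populations, which 15250 genes of the matrix passed. A UMI is a molecular tag that marks a single captured transcript.

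The study profiled nuclei of mouse testis by simultaneous scRNA-seq and scATAC-seq to follow gene expression and chromatin accessibility into meiosis, with and without the transcription factor NFYA in germ cells. Wild-type (WT) testes were taken at 11, 17 and 25 days post-partum (dpp). Testes of 8-week-old mice came from Nfya-CKO males (Nfya fl/fl; Stra8-Cre), and from Cre/+ males, which carry the same Cre and served as their control. Stra8-Cre is active in premeiotic germ cells, so that Sertoli, Leydig and other somatic cells of the Nfya-CKO testis keep an intact Nfya gene, and the Cre was present in both 8-week groups but in none of the WT testes. Each condition had 1 library per assay.

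The 13 populations were named by the authors. Of these, 9 are germ cells of the WT and Cre/+ testes (with at most 4 cells each from the Nfya-CKO library), here in the order of spermatogenesis. Spermatogonia were either undifferentiated (undiff. SpG) or differentiating (diff. SpG). Spermatocytes were split into preleptotene (pL), early leptotene to zygotene (eL/L/Z), leptotene to early pachytene (L/Z/eP), mid to late pachytene (mP/lP) and diplotene (D). Spermatids were either round (RS) or elongating (ES). The others are spermatogonia of the Nfya-CKO library (SpG Nfya-CKO), Sertoli cells, other somatic cells, and unknown cells.

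The deposited matrices hold 1 value per gene and population, pooled over libraries, so no value has a replicate error and none of the differences below could be tested. No p-value is given, and differences are described by their size. The libraries held between 3746 and 18039 RNA cells and between 30227701 and 64967271 UMIs. The populations held from 99 (unknown) to 8107 (L/Z/eP) cells, with a median of 1525 UMIs per cell in other somatic cells and of 18361 in SpG Nfya-CKO. Stage and age were mixed. Cells of juvenile testes made up 92.0% of undiff. SpG, 99.7% of pL and 97.2% of L/Z/eP, whereas cells of the Cre/+ library made up 84.5% of diff. SpG, 77.0% of RS and 99.6% of ES. The WT 25 dpp library alone gave 93.5% of L/Z/eP and 70.7% of mP/lP, and the WT 11 dpp library gave 87.8% of Sertoli cells. Stage, age and library can therefore not be told apart for diff. SpG, L/Z/eP and ES, nor fully for the other populations. Nfya itself had 1.11 UMIs per 10000 in SpG Nfya-CKO, against 0.456 in undiff. SpG and 0.667 in diff. SpG. Its RNA was thus higher and not lower where the gene should be lost, so the text speaks of the library labelled Nfya-CKO. The Cre removes only some exons of the floxed gene, and the matrix does not show which exons were read, so that this level does not check the loss of NFYA. At the protein level, the study reported that NFYA was depleted in Nfya-CKO germ cells, by Western blotting and immunohistochemistry.

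Cyclin-dependent kinases drive the cell cycle when bound to cyclins. CDK4 and CDK6 pair with D-type cyclins in early G1 and are held back by the INK4 inhibitors, which include the products of Cdkn2c (p18) and Cdkn2d (p19). CDK2 pairs with E- and A-type cyclins at the start of DNA replication and is held back by the CIP/KIP inhibitors, which include the products of Cdkn1a (p21) and Cdkn1b (p27), while CDK1 drives the entry into division and is kept inactive by WEE1. In the testis, spermatogonia divide by mitosis, preleptotene spermatocytes replicate their DNA a last time, and spermatocytes then pass through a long prophase I in which CDK2 is needed for chromosome synapsis, while CDK1 drives the exit into the meiotic divisions. Round and elongating spermatids no longer divide.

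NF-Y, the complex of which NFYA is the DNA-binding subunit, binds the pentanucleotide CCAAT, which is known from promoters of cell cycle genes. RefSeq promoter windows of GRCm38.p6, from 250 bases before to 50 bases after the start of transcription, were found for 9 of the 10 members (11 windows, with a pair each for Cdkn1a and Cdkn2c), and none was found for Wee1. CCAAT, searched on both strands (CCAAT or ATTGG), lay in 6 of the 11 windows, each of another member, against 37.4% of all 32851 promoter windows. The Cks1b window held 4 matches, a number that 1.06% of all windows reached, those of Cdk1 and Cdkn1b held 3 each, and those of Cdk2 and Cdkn2d held 1 each. The window at the downstream start of Cdkn2c held 1 match, 8 bases into the transcript. Cdk4, Cdk6 and Cdkn1a had no match in these windows. The Cdk6 window (chr5:3343643-3343942) lay inside the gene, so that its outermost annotated start (chr5:3341004) was not searched. The upstream matches are printed here because the Nfya-CKO comparison turns on a CCAAT-binding factor. Each stretch runs 5′ to 3′ on the strand of the gene with 12 bases on either side of the outermost matches, and capitals mark CCAAT or its reverse complement.
Cks1b: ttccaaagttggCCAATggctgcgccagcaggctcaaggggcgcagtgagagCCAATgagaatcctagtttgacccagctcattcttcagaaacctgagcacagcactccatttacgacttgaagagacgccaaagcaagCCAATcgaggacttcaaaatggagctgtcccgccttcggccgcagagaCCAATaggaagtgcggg
Cdk1: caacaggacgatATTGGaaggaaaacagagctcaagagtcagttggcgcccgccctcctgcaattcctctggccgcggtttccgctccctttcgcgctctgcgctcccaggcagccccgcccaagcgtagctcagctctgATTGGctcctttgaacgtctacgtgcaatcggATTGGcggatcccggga
Cdkn1b: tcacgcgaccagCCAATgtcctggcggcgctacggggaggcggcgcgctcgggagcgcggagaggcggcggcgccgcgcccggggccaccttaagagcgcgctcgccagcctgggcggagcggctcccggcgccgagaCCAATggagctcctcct
Cdk2: tcgtgacgtgaaCCAATcggaagggcggg
Cdkn2d: caacgcgtgctgATTGGctgttattccca

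The stretches are chr3:89418316-89418520 on the minus strand for Cks1b, chr10:69352944-69353132 on the minus strand for Cdk1, chr6:134920228-134920382 on the plus strand for Cdkn1b, chr10:128705080-128705108 on the minus strand for Cdk2 and chr9:21291413-21291441 on the minus strand for Cdkn2d. In Cks1b, all 4 matches read CCAAT in the direction of the gene and began 217, 177, 89 and 41 bases before the start. In Cdk1, all 3 read ATTGG and began 208, 80 and 48 bases before the start. In Cdkn1b, the upstream matches began 161 and 35 bases before the start, and the third lay 46 bases into the transcript. The match of Cdk2 began 45 and that of Cdkn2d 220 bases before the start used for its window. For Cdkn2d that start lay inside the gene, and the outermost annotated start (chr9:21291421) falls within the printed stretch.

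The other motifs searched on both strands were the GC box GGGCGG, the cell cycle homology element TTTGAA, and the E2F sites TTTGGCGC and TTTCCCGC. None of their matches in the members overlapped a match of another motif. GGGCGG was found in 8 of the 11 windows, each of another member, against 35.7% of all windows. TTTGAA was found in Cdk1 and Cks1b, against 17.9% of all windows. TTTCCCGC was found in Cdk2 alone of the members, against 1.07% of all windows, and TTTGGCGC in none of them, against 0.514%. A match is only a run of letters in this window, and binding at these sites was not analysed here.

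The kinases of G1, Cdk4 and Cdk6, had their highest germ cell RNA in undiff. SpG. Cdk4 stood at 1.05 UMIs per 10000 there, 0.556 in diff. SpG, 0.460 in pL, 0.518 in eL/L/Z, 0.280 in L/Z/eP, 0.388 in mP/lP, 0.262 in D, 0.171 in RS and 0.709 in ES. RS was the lowest population, although eL/L/Z lay above pL and mP/lP above L/Z/eP, and the level was 4.14-fold higher in ES than in RS. Cdk6 stood at 1.15 in undiff. SpG, 0.974 in diff. SpG, 0.984 in pL and 0.947 in eL/L/Z, and then at 0.369 in L/Z/eP, 0.290 in mP/lP, 0.492 in D, 0.208 in RS and 0.255 in ES. The 4 earliest populations did not overlap the 5 later ones, and L/Z/eP differed from eL/L/Z by a log2 ratio of -1.16. The share of all genes with such a split is not given here, and L/Z/eP came mostly from the WT 25 dpp library.

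**Figure D1:**
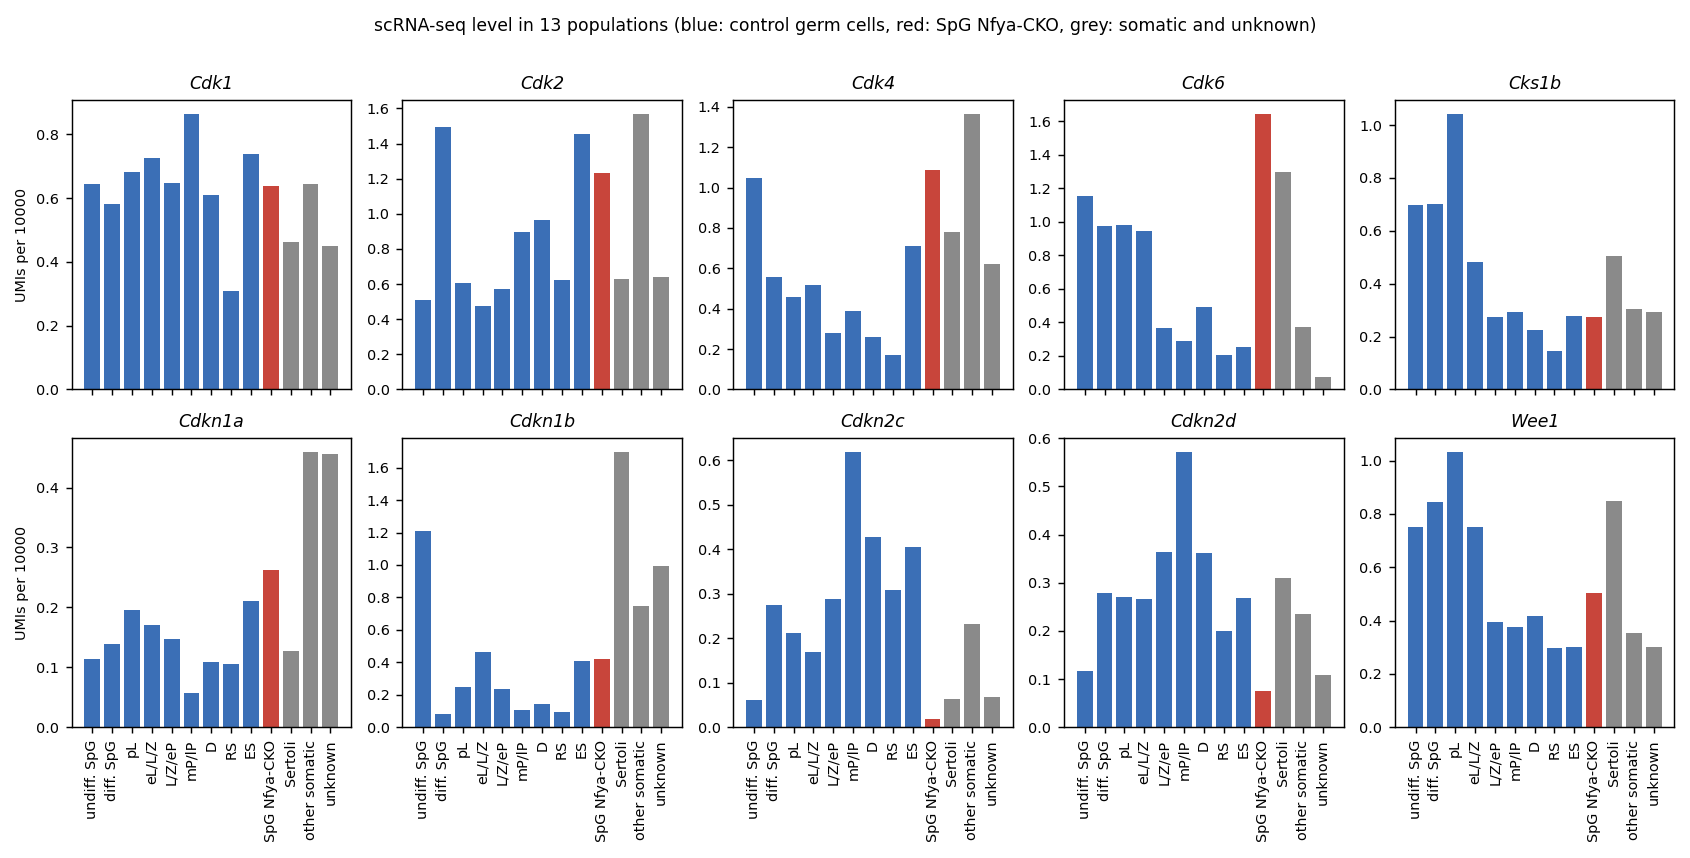
RNA level of the 10 members (UMIs per 10000, y axis, starting at 0 with its own scale for each gene) in the 13 populations (x axis), with 1 bar per population and no error bars, because each bar is 1 pooled value. Cdk6, Cks1b and Wee1 are high up to eL/L/Z, Cdkn2c and Cdkn2d are highest in mP/lP, and Cdkn1b falls from 1.21 in undiff. SpG to 0.0786 in diff. SpG.

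Cdk1 and Cdk2, the kinases of replication and division, did not follow that order. Cdk1 had the narrowest range of the members, from 0.309 in RS over a median of 0.649 to 0.864 in mP/lP, a 2.80-fold range. Its level in the other 7 germ cell populations lay between 0.581 and 0.737. Cdk2 ranged from 0.474 in eL/L/Z to 1.49 in diff. SpG, with 0.512 in undiff. SpG, 0.605 in pL, 0.574 in L/Z/eP, 0.894 in mP/lP, 0.966 in D, 0.622 in RS and 1.45 in ES. Its highest pair, diff. SpG and ES, were 2.91-fold and 2.34-fold above undiff. SpG and RS, and both came mostly from the Cre/+ library. Diff. SpG also held more RNA of the spermatid markers Prm1 and Tnp1 (5.44 UMIs per 10000 in sum) than undiff. SpG (0.246) or pL (0.00834), and more of the pachytene markers Piwil1 and Adam3 (2.96 against 0.867 and 0.310). Their part in the Cdk2 level was not tested.

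The Cdk2 gene (chr10:128697938-128705051, GRCm38) lies within Pmel on the opposite strand, and the last bases of Cdk4 (chr10:127063535-127067288) overlap Tspan31. Cdk6 (chr5:3341004-3531008) overlaps the lncRNA genes Gm36470 and Gm29868 on the opposite strand, whose levels were not analysed here. Pmel was listed at 0.158 UMIs per 10000 in diff. SpG and 0.136 in undiff. SpG, so that its row did not follow Cdk2. Tspan31 did run with Cdk4 in part, with 0.395 in undiff. SpG, 0.0735 in diff. SpG, 0.252 in pL, 0.0489 in RS (its lowest) and 0.296 in ES. Whether reads of one gene were counted for the other was not tested.

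Cks1b, whose product docks on CDKs and helps to mark p27 for degradation, and Wee1, whose product blocks CDK1, followed the pattern of Cdk6. Cks1b stood at 0.696 in undiff. SpG, 0.702 in diff. SpG, 1.04 in pL, 0.484 in eL/L/Z, 0.274 in L/Z/eP, 0.293 in mP/lP, 0.225 in D, 0.146 in RS and 0.279 in ES. The highest value, in pL, was 7.14 times the lowest, in RS. Wee1 stood at 0.750 in undiff. SpG, 0.846 in diff. SpG, 1.03 in pL, 0.750 in eL/L/Z, 0.394 in L/Z/eP, 0.377 in mP/lP, 0.418 in D, 0.295 in RS and 0.303 in ES. As with Cdk6, the 4 populations up to eL/L/Z all lay above the 5 later ones in both genes. How many of all genes split in this way is not given here. Over the 9 germ cell populations, the Pearson correlation of log2(value + 0.1) was 0.96 between Cdk6 and Wee1, 0.95 between Cks1b and Wee1 and 0.89 between Cdk6 and Cks1b. These correlations describe 9 points that share libraries and depth.

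Among the CIP/KIP inhibitors, Cdkn1b marked the undifferentiated spermatogonia. It stood at 1.21 UMIs per 10000 in undiff. SpG, 0.0786 in diff. SpG, 0.247 in pL, 0.463 in eL/L/Z, 0.234 in L/Z/eP, 0.108 in mP/lP, 0.141 in D, 0.0920 in RS and 0.410 in ES. Its 15.4-fold range from undiff. SpG to diff. SpG was the widest of the members, and no other germ cell population reached 0.5 UMIs per 10000. The value in diff. SpG rests on about 34.4 UMIs, and these cells came mostly from the Cre/+ library. Outside the germ line Cdkn1b was higher still in Sertoli cells, at 1.70. Cdkn1a was low throughout, from 0.0570 in mP/lP over a median of 0.139 to 0.210 in ES, and was higher in other somatic cells (0.460) and in unknown cells (0.455, where the value rests on only about 10.4 UMIs).

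The INK4 inhibitors Cdkn2c and Cdkn2d ran the other way and were highest in pachytene. Cdkn2c stood at 0.0613 in undiff. SpG, 0.275 in diff. SpG, 0.211 in pL, 0.170 in eL/L/Z, 0.287 in L/Z/eP, 0.618 in mP/lP, 0.427 in D, 0.308 in RS and 0.405 in ES. Cdkn2d stood at 0.117 in undiff. SpG, 0.279 in diff. SpG, 0.270 in pL, 0.267 in eL/L/Z, 0.364 in L/Z/eP, 0.572 in mP/lP, 0.362 in D, 0.199 in RS and 0.268 in ES. In both genes undiff. SpG was the lowest germ cell population and mP/lP the highest, with a 10.1-fold range for Cdkn2c and a 4.87-fold range for Cdkn2d. Their correlation over the 9 populations was 0.84 on the log2 scale. Cdkn2c correlated at -0.75 with Cdkn1b and at -0.74 with Cdk6.

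The spread of the members over germ cell populations was close to that of other genes. The median ratio of the highest to the lowest germ cell value was 5.2 for the members and 5.44 for the 15068 genes with RNA in every germ cell population.

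Between neighbouring populations, a gene was counted as changed when its values differed by at least 2-fold after adding 0.1 to each, which draws the ratio of low genes towards 1. The members made 9 such changes over the 8 neighbouring steps. From undiff. to diff. SpG, 3 of 10 members changed, against 15.8% of all 15250 genes: Cdk2 (log2 ratio 1.38) and Cdkn2c (1.22) were higher and Cdkn1b (-2.87) was lower. Diff. SpG also held more pachytene and spermatid marker RNA than undiff. SpG, and Cdkn2c was highest in mP/lP. The part of that RNA in these differences was not tested. From diff. SpG to pL, 1 of 10 changed (12.2% of all genes), and this was Cdk2, which was lower by a log2 ratio of -1.18. From pL to eL/L/Z none changed (5.0% of all genes), and the largest difference was that of Cks1b (-0.97). In L/Z/eP against eL/L/Z, 1 of 10 changed (9.42% of all genes), namely Cdk6.

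The later steps held fewer changes until the last. No member changed from L/Z/eP to mP/lP (4.92% of all genes), where Cdkn2c came closest at 0.89. No member changed from mP/lP to D (5.1% of all genes) or from D to RS (13.9% of all genes), although 10 of 10 had a negative log2 ratio at the latter step, as did 63.0% of all genes. The median over all genes was -0.17 there, and 9 of 10 lay below it. From RS to ES, 4 of 10 were higher, against 10.1% of all genes (20.1% changed in either direction). These were Cdk4 (1.58), Cdkn1b (1.41), Cdk2 (1.11) and Cdk1 (1.03). After centring on the median over all genes, Cdk2 (0.98) and Cdk1 (0.91) fell below the 2-fold mark. ES rest on 1195 cells of nearly 1 library. The summed RNA of 5 Sertoli markers was 5.89 UMIs per 10000 in ES against 0.933 in RS, and that of 4 Leydig markers 4.89 against 0.624. Sertoli cells and other somatic cells had 0.779 and 1.36 for Cdk4 and 1.70 and 0.749 for Cdkn1b, all above ES. They had 0.464 and 0.646 for Cdk1, both below ES (0.737), and 0.629 and 1.57 for Cdk2, on either side of ES (1.45). The part of these transcripts in the difference between RS and ES was not tested.

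The comparison of the genotype asked how these genes stood in SpG Nfya-CKO, a population of 491 RNA cells from the library labelled Nfya-CKO. Cks1b and Cdkn1b were lower than in control undiff. SpG, Cdk2 was higher, and Cdk1 and Cdk4 were nearly level. Against diff. SpG, Cks1b was again lower, Cdkn2c and Cdkn2d were lower, and Cdkn1b was higher. With 0.1 added, Cks1b was thus the one member at least 2-fold lower against each control. As plain ratios, Cdkn2c was lower still, at 0.293 of undiff. SpG, 0.0654 of diff. SpG and 0.0851 of pL, but it rests on few UMIs.

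Cks1b had 0.273 UMIs per 10000 in SpG Nfya-CKO, against 0.696 in undiff. SpG, 0.702 in diff. SpG and 1.04 in pL. The log2 ratio was -1.10 over undiff. SpG, -1.10 over diff. SpG and -1.61 over pL. The value in SpG Nfya-CKO lay below all 3 controls and next to that of L/Z/eP (0.274) and ES (0.279). Cks1brt, a retrotransposed copy of Cks1b with a row of its own, was listed at 0.297 in SpG Nfya-CKO, 0.162 in undiff. SpG, 0.356 in diff. SpG and 0.264 in pL. How reads shared by the copies were divided is not given in the sources used here beyond the use of uniquely mapped reads.

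Cdkn1b had 0.422 in SpG Nfya-CKO, which lay between undiff. SpG (1.21) on the upper side and pL (0.247) and diff. SpG (0.0786) on the lower side. Its log2 ratio was -1.33 over undiff. SpG but 1.55 over diff. SpG and 0.59 over pL, so that its direction rests on the control chosen. Cdk2 had 1.23 in SpG Nfya-CKO, a log2 ratio of 1.12 over undiff. SpG (0.512), -0.26 over diff. SpG (1.49) and 0.92 over pL (0.605).

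Of the other kinases, Cdk6 had 1.64 in SpG Nfya-CKO, above every germ cell population, although its log2 ratios stayed below the 2-fold mark (0.48 over undiff. SpG, 0.70 over diff. SpG and 0.69 over pL). Sertoli cells had 1.30 for Cdk6 and other somatic cells 0.374. Cdk4 had 1.09, level with undiff. SpG at 1.05 and above diff. SpG (0.556) and pL (0.460), with a log2 ratio of 1.08 over pL that passed the 2-fold mark. Cdk1 had 0.637, inside the narrow range of 0.581 to 0.682 of the 3 control populations.

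The remaining inhibitors were scarce. Cdkn2c had 0.0180 in SpG Nfya-CKO, the lowest of the 13 populations, from about 14.1 UMIs, against 0.0613 in undiff. SpG from about 54.4 UMIs. That is a plain ratio of 0.293, and a log2 ratio of -0.45 after adding 0.1. Cdkn2d had 0.0750 in SpG Nfya-CKO and 0.117 in undiff. SpG, a log2 ratio of -0.31. Over diff. SpG, the log2 ratios were -1.67 for Cdkn2c and -1.12 for Cdkn2d, and over pL they were -1.40 and -1.08. Cdkn1a had 0.262 against 0.113, a log2 ratio of 0.76, and Wee1 had 0.504 against 0.750, a log2 ratio of -0.49.

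**Figure D2:**
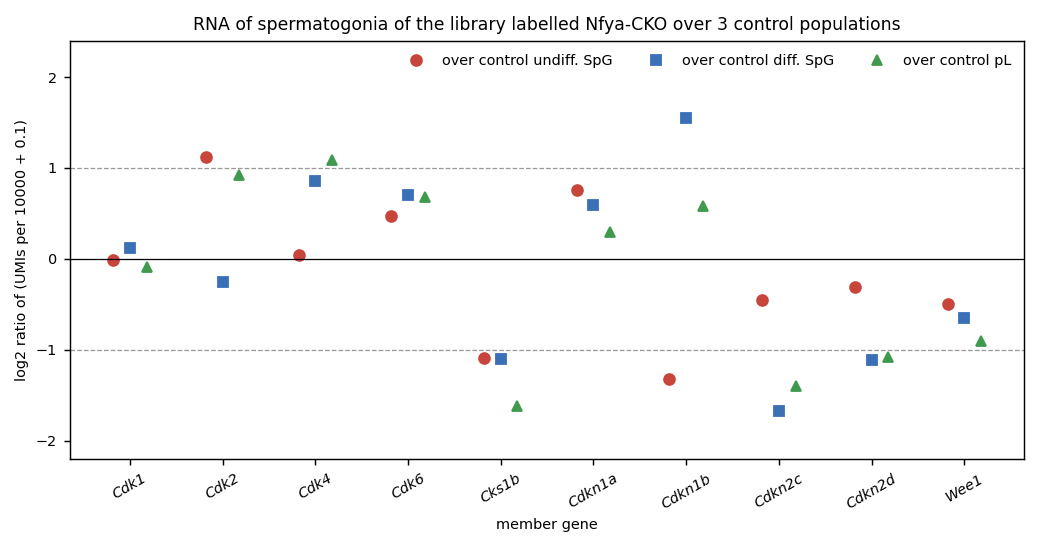
Log2 ratio (y axis) of RNA in SpG Nfya-CKO over 3 control populations, undiff. SpG, diff. SpG and pL, for each of the 10 members (x axis), with 0.1 added to each value and dashed lines at the 2-fold mark. Cks1b lies below -1 against all 3 controls, whereas Cdkn1b lies at -1.33 against undiff. SpG and at 1.55 against diff. SpG.

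In all, 1 of 10 members was at least 2-fold higher in SpG Nfya-CKO than in undiff. SpG, against 4.09% of all genes, and 2 of 10 were at least 2-fold lower, against 3.08% of all genes. Over diff. SpG, 1 of 10 was higher (6.86% of all genes) and 3 of 10 were lower (10.5% of all genes). Over pL, 1 of 10, Cdk4, was higher (9.05% of all genes) and 3 of 10 were lower (4.73% of all genes), namely Cks1b, Cdkn2c and Cdkn2d. The median log2 ratio was -0.16 over the members and 0.01 over all genes for undiff. SpG, and -0.07 and -0.01 for diff. SpG. For pL it was 0.10 and 0.08. With 3 control populations at different stages, SpG Nfya-CKO lay below all of them for 4 members (Cks1b, Cdkn2c, Cdkn2d and Wee1), against 24.5% of all genes, and above all of them for 3 (Cdk4, Cdk6 and Cdkn1a), against 30.2% of all genes.

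Other features moved with this comparison. SpG Nfya-CKO had a median of 18361 UMIs per cell, against 9290 in undiff. SpG and 6188 in diff. SpG, and all their cells were from 8-week-old mice, against 7.97% of undiff. SpG. Summed RNA of 4 Leydig markers was 41.9 UMIs per 10000 in SpG Nfya-CKO, against 0.188 in undiff. SpG, 1.05 in diff. SpG and 0.211 in pL, and each of the 4 markers was higher than in these controls, Insl3 most of all (39.8). Other somatic cells, of which 78.8% were from the same library, had 187 for that sum, and had 1.57 for Cdk2, 1.36 for Cdk4 and 0.460 for Cdkn1a, each above the value in undiff. SpG. For Cks1b they had 0.305 and for Cdkn2c 0.233. The part of such RNA in the member values was not tested. The 4 markers of undifferentiated spermatogonia summed to 16.7 in SpG Nfya-CKO, against 16.4 in undiff. SpG and 6.57 in diff. SpG, but they did not move together. Uchl1 was at 11.0 against 5.88 in undiff. SpG (and at 4.87 in other somatic cells) and Gfra1 at 1.20 against 1.08, whereas Zbtb16 was at 4.15 against 8.74 and Id4 at 0.290 against 0.682.

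The proliferation markers did not share a direction in SpG Nfya-CKO. Top2a had 1.98 UMIs per 10000 against 3.34 in undiff. SpG, Pcna 0.239 against 0.569, Ccnb1 0.476 against 0.950 and Mki67 1.33 against 1.79, whereas Cenpf had 17.0 against 9.12. Mki67, Pcna and Top2a were below undiff. SpG, diff. SpG and pL alike.

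The partner list held 26 further cyclins and CDK regulators, 25 of which passed the filter. In SpG Nfya-CKO over undiff. SpG, 1 of the 25 was at least 2-fold higher (4.09% of all genes) and 3 were at least 2-fold lower (3.08% of all genes). The median log2 ratio was -0.34 over the list and 0.01 over all genes. Cks2, the close relative of Cks1b, had the largest difference, with 0.0878 UMIs per 10000 in SpG Nfya-CKO against 1.26 in undiff. SpG (log2 ratio -2.86), 0.289 in diff. SpG and 1.11 in pL. Both Cks genes thus lay below all 3 control populations. Ccnb3, a cyclin of meiotic prophase, had 0.0650 against 0.289 (-1.24), and Ccnd2, a D-type cyclin, had 4.67 against 10.8 (-1.19). Ccnd2 was still above diff. SpG (0.579) and pL (1.24). Pkmyt1, a kinase that restrains CDK1 like WEE1, had 0.837 against 0.292 (1.26), and lay below diff. SpG (1.22). Over diff. SpG, 3 of the 25 were higher (6.86% of all genes) and 6 were lower (10.5% of all genes).

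Along the germ line, the partner genes changed most often at the first step. From undiff. to diff. SpG, 3 of 25 were higher (9.57% of all genes) and 4 lower (6.28%). Ccnd2 fell there from 10.8 to 0.579 (log2 ratio -4.01), beside Cdkn1b. In L/Z/eP against eL/L/Z, none of the 25 was higher (5.45% of all genes) and 3 were lower (3.97%), namely Ccna2, Ccnd1 and Ccnd2, beside Cdk6 (Ccna2 and Ccnd1 were named after their values were seen). At the other steps, between 1 and 5 of the 25 changed, where between 4.92% and 20.1% of all genes did.

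**Figure D3:**
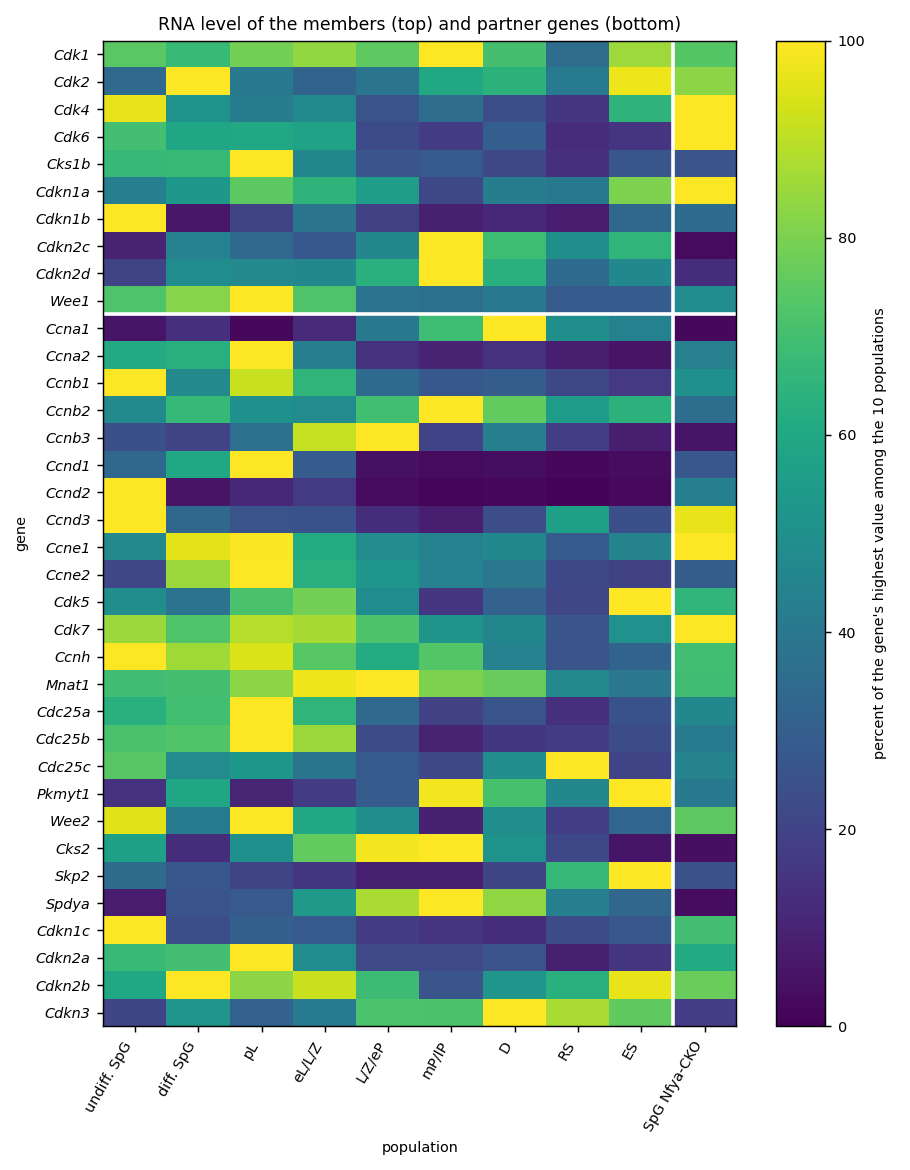
RNA level of the 10 members (above the white line) and the 26 partner genes (below it) in the 9 germ cell populations and in SpG Nfya-CKO (x axis), each as a percentage of the highest of the 10 values of the gene (colour scale from 0 to 100). Cks1b and Cks2 are both dark in SpG Nfya-CKO, with 0.273 and 0.0878 UMIs per 10000, while Cdk4 and Cdk6 have their highest value there.

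The genes whose RNA was most like each member over the 13 populations, by Pearson correlation of log2(value + 0.1) over the 10386 genes whose mean reached 0.2, were taken without regard to function. The closest were Hlcs for Wee1 (r = 0.98), Ube2m for Cdkn2d (0.98), Dusp6 for Cdkn1b (0.98), Sumo3 for Cdk4 (0.96), Sephs2 for Cdkn2c (0.96), Ap1ar for Cks1b (0.95), Fam169a for Cdk6 (0.95), Yif1b for Cdk2 (0.94), Slc48a1 for Cdkn1a (0.92) and Sec13 for Cdk1 (0.85). These are the highest of many correlations over 13 points that share libraries, and are given as a description.

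Chromatin accessibility of the members was given by the scATAC-seq matrix as signal per gene, scaled here to 1000000 per population. For the study's pseudo-bulk tracks, promoter accessibility was defined by coverage close to the start site. Whether the matrix was made in that way is not given in the sources used here. Mitochondrial genes took between 31.2% (pL) and 63.8% (L/Z/eP) of the germ cell signal, so the nuclear signal was also scaled on its own, and both scales are given. On the nuclear scale, 7 of the 10 members varied less over the germ cell populations than the median of 15238 genes (1.97-fold). Their ranges were 1.54-fold for Cdk1, 1.48-fold for Cdk2, 1.60-fold for Cdk4, 1.45-fold for Cks1b, 1.5-fold for Cdkn2c, 1.61-fold for Cdkn2d and 1.48-fold for Wee1. On the scale of all genes the same 7 had ranges of 1.53-fold to 2.32-fold. The lowest value on that scale was in L/Z/eP or mP/lP, where the mitochondrial share was 63.8% and 60.3%, for 6 of these 7, and in ES for Cdk4.

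Cdkn1b, Cdk6 and Cdkn1a varied more on either scale. Cdkn1b had 67.5 per 1000000 nuclear signal in undiff. SpG, 32.0 in diff. SpG, 47.9 in pL, 32.6 in eL/L/Z, 20.0 in L/Z/eP, 14.4 in mP/lP, 15.6 in D, 22.2 in RS and 13 in ES. Its signal was highest where its RNA was highest, and had a 5.18-fold range. Cdk6 had 65.7 in undiff. SpG, 62.5 in diff. SpG, 63.4 in pL, 52.8 in eL/L/Z, 45.8 in L/Z/eP, 37.1 in mP/lP, 42.5 in D, 34.5 in RS and 20.0 in ES. The 4 populations up to eL/L/Z again lay above the 5 later ones, and the share of all genes with such a split in signal is not given here. Cdkn1a had little signal, from 3.32 in undiff. SpG to 14.4 in ES, and ES rest on 124 cells with paired data.

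**Figure D4:**
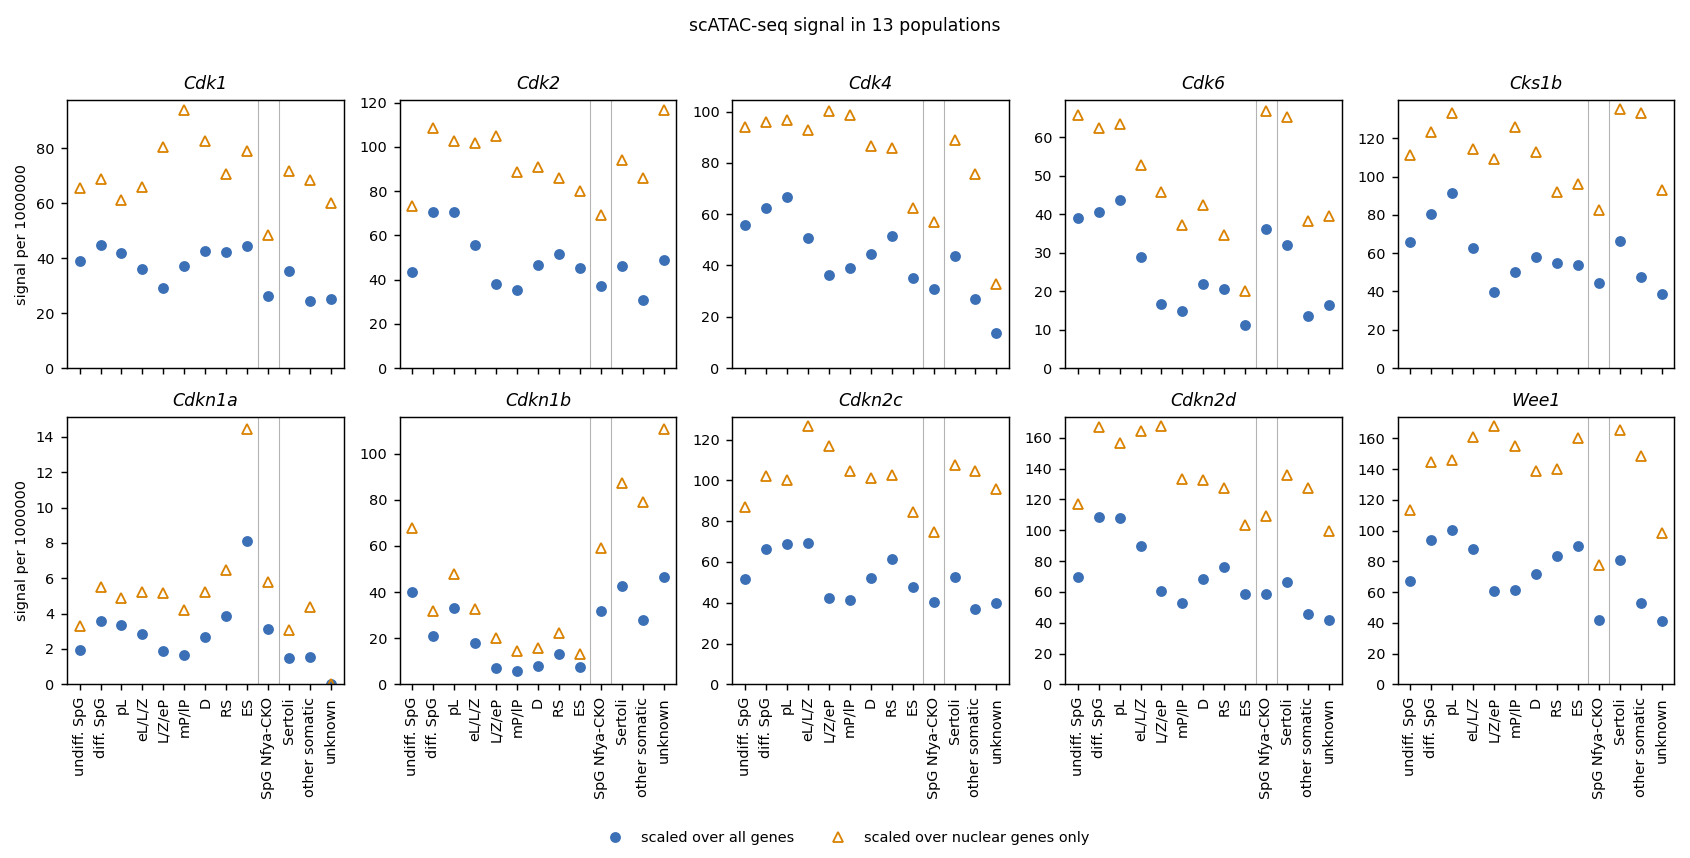
scATAC-seq signal of the 10 members (per 1000000, y axis, starting at 0 with its own scale for each gene) in the 13 populations (x axis), scaled over all genes (filled circles) or over nuclear genes only (open triangles), with 1 pooled value per point and no error bars. Cdkn1b and Cdk6 are lower in ES than in undiff. SpG on both scales (13 against 67.5 and 20.0 against 65.7 per 1000000 nuclear signal), with rises between some neighbouring populations, while Wee1 in SpG Nfya-CKO (77.9) lies below every germ cell population.

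Over the 9 germ cell populations, RNA and accessibility of Cdk6 correlated at 0.92 on the scale of all genes and at 0.91 on the nuclear scale, and those of Cks1b at 0.89 and 0.70. The values were 0.67 and 0.75 for Cdkn1b and 0.65 and 0.58 for Cdkn1a. Cdkn2c, with its RNA maximum in mP/lP, had -0.55 and -0.05, and Cdk2 had 0.18 and 0.03. The sign of the correlation differed between the scales for Cdk1 (-0.26 and 0.39), Cdk4 (0.21 and -0.18), Cdkn2d (-0.38 and 0.18) and Wee1 (0.53 and -0.29). The median was 0.37 over the members and 0.32 over 15238 genes on the scale of all genes, and 0.28 and 0.34 on the nuclear scale. All of these are Pearson correlations. By rank (Spearman), on the scale of all genes, the value was 0.85 for Cdk6 and 0.73 for Cks1b, but only 0.32 for Cdkn1b and 0.45 for Cdkn1a.

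In SpG Nfya-CKO, accessibility was below that of undiff. SpG at 9 of the 10 members on the scale of all genes, against 52.6% of all genes. Wee1 had 42.1 per 1000000 against 67.4 (ratio 0.624), Cdk4 30.7 against 55.8 (0.551), Cdk1 26.1 against 39.0 (0.671) and Cks1b 44.6 against 66.0 (0.676). Cdkn2c had 40.4 against 51.6 (0.784), Cdkn1b 32.0 against 40.1 (0.797), Cdkn2d 58.9 against 69.4 (0.848), Cdk2 37.3 against 43.4 (0.859) and Cdk6 36.1 against 39.0 (0.925). Only Cdkn1a was above its control, at 3.12 against 1.97 (1.58). A ratio of 0.8 or less was counted as lower, and one above 1 by the same factor as higher. By this rule 6 of 10 members were lower, against 25.4% of all 29939 genes with signal in both populations, and 1 of 10 was higher, against 27.3% of all genes.

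Among genes with more signal than the median gene, the share of lower genes rose with the control signal, from 11.3% in decile 6 to 54.2% in decile 10. In the 5 deciles of lower signal it lay between 8.92% and 28.9%, in no such order. Of the 10 members, 9 fell in the top 2 deciles of genes by signal in undiff. SpG, where the median ratio of all genes was 0.828 and 0.787 and where 42.1% and 54.2% of genes had a ratio of 0.8 or less. Set against those medians, Cdk4, Wee1, Cks1b and Cdk1 were lower, at percentiles 4.39, 7.43, 11.0 and 10.5 of all genes, Cdkn1b and Cdkn2c lay just under the median of their decile (0.797 and 0.784), and Cdk6, Cdkn2d and Cdk2 were higher than it. SpG Nfya-CKO had a mean TSS enrichment (the signal at transcription start sites over that of their flanks) of 7.99 against 12.7 in undiff. SpG, and a mitochondrial share of 46.0% against 40.6%. The part of these differences in the ratios was not tested. Scaling to nuclear genes moved each ratio up by the same factor, to 0.606 for Cdk4, 0.687 for Wee1, 0.738 for Cdk1 and 0.744 for Cks1b, which left these 4 of 10 at or under 0.8, against 15.9% of all genes. That share was not split by control signal. Cdk6 moved to 1.02 on that scale and so lay above undiff. SpG, as Cdkn1a did.

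**Figure D5:**
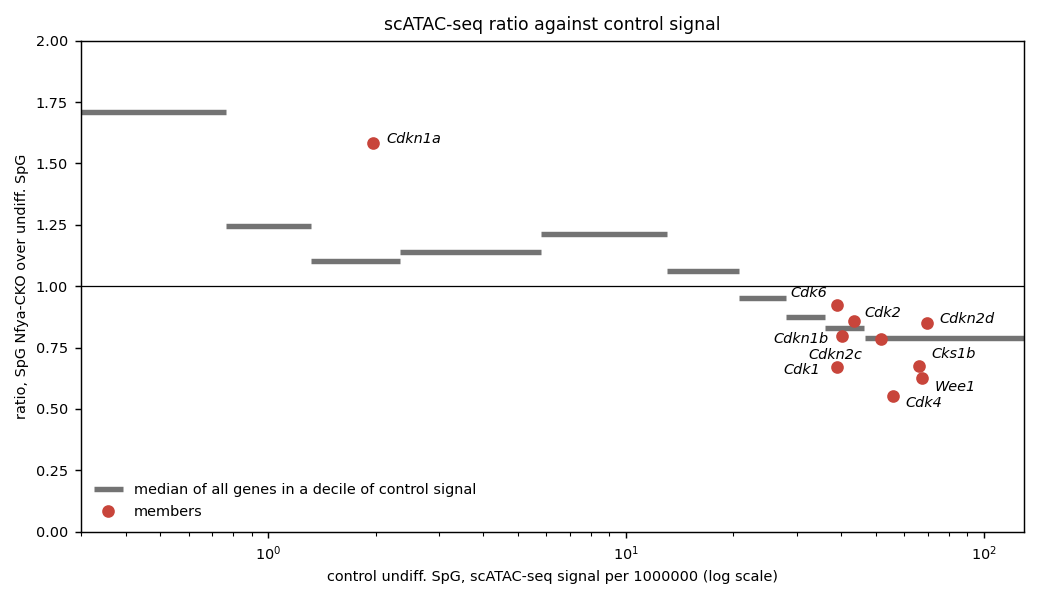
Ratio of scATAC-seq signal in SpG Nfya-CKO over undiff. SpG (y axis) against the signal in undiff. SpG (per 1000000, log x axis) for the 10 members (points), with grey bars for the median ratio of all genes in each decile of control signal. Cdk4 (0.551), Wee1 (0.624), Cdk1 (0.671) and Cks1b (0.676) lie below the bar of their decile, and Cdkn1a (1.58) lies above its own.

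Against the other controls more members were lower. Over diff. SpG, 7 of 10 had a ratio of 0.8 or less, against 42.5% of all genes, and over pL the same 7, against 39.3% of all genes. These shares were not split by control signal, so that they do not compare the members with genes of like signal. Wee1 had a ratio of 0.447 over diff. SpG and 0.419 over pL, Cdk4 0.491 and 0.461, Cks1b 0.556 and 0.487, and Cdk1 0.584 and 0.622. The others of the 7 were Cdk2 (0.528 and 0.529), Cdkn2d (0.541 and 0.546) and Cdkn2c (0.607 and 0.586). Cdk2 and Cdkn2d lay below Cdk1 against both controls, and Cdkn2c lay below it over pL only. On the nuclear scale SpG Nfya-CKO was below all 9 germ cell populations at Cdk1 (48.5 per 1000000), Cdk2 (69.1), Cdk4 (56.9), Cks1b (82.7), Cdkn2c (74.9) and Wee1 (77.9). These are 6 of 10 members, against 18.7% of all genes, but such genes were common at high signal: of the 4987 genes with at least the signal in undiff. SpG of the 9 members other than Cdkn1a, 48.1% lay below all 9 populations. RNA did not follow accessibility in each of the 4 at or under 0.8 of undiff. SpG on both scales. Cks1b was lower in both readouts, Wee1 had a log2 RNA ratio of -0.49, while Cdk1 (-0.01) and Cdk4 (0.05) were level in RNA with undiff. SpG. Of these 4, Cks1b and Cdk1 have the upstream CCAAT runs printed earlier, Cdk4 has none in its window, and Wee1 had no window to search. Cdkn1b, with as many matches as Cdk1 but not all of them upstream, had a ratio of 0.797 over undiff. SpG. Cdkn2c, Cdkn2d and Cdk2, with 1 CCAAT each, had 0.784, 0.848 and 0.859. Cdk6 and Cdkn1a, with none in the windows searched, had 0.925 and 1.58. Whether the matches bear on these ratios was not tested.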

How the data were processed

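Nuclei of mouse testis were measured by scRNA-seq and scATAC-seq with each condition sequenced once per assay. RNA reads were mapped to mm10 with STAR by the authors, who kept unique alignments and counted UMIs per gene. Per the labels the processing notes name STAR 2.7.10b, Seurat 5.2.1, BWA 0.7.12, bedtools 2.27.1 and ArchR 1.0.3. The authors deposited per-cell counts of UMIs and fragments with cell populations, from which doublets had been removed with DoubletFinder (RNA) and ArchR (chromatin) by the authors. No further doublet call was made. The authors deposited 1 matrix per assay on a natural log scale, ln(1 + value). TSS enrichment is a ratio deposited by the authors. That the RNA value is the mean over cells of UMIs per 10000 UMIs of the cell was found from the values: the smallest steps matched a cell of the population in 78 of 78 cases. Shallow cells therefore weigh as much as deep ones, and whole counts could not be recovered, so that no counting interval is given. The UMIs stated behind a value are approximate, from the harmonic mean depth of the cells. Left unused were 22 other columns of these tables.

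Values were turned back with exp(value) - 1 in Python 3.11.15 with numpy 2.4.6, pandas 2.3.3 and scipy 1.17.1, and scATAC-seq values scaled to 1000000 per population. RNA ratios are log2 with 0.1 added, called at 2-fold, and scATAC-seq ratios have nothing added and are called lower at 0.8 or less and higher at the inverse of that or more. Calls were checked on simulated data, and the outcome of that check is not given here. Because no condition has a replicate, no test was run. Promoter sequences and coordinates were taken from RefSeq on GRCm38.p6, a patch release of the assembly that mm10 names. Genes named were the members, Nfya, partner genes at least 2-fold apart in SpG Nfya-CKO over undiff. SpG, and the gene most like each member. Genes of the proliferation and cell type marker lists were used as checks, and Cks1brt, Pmel and Tspan31 as a copy or neighbours by annotation. Which of these to print, and any other gene, was chosen after values were seen. The members and the gene lists were chosen with earlier results of these data known.

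Alternatives covered the pseudocount, the filter, the scaling, the control population and the populations compared. 20 alternatives were planned and 5 were added after seeing the data. A ratio, level or count counted as kept within 1.5-fold and a correlation within 0.2. Bulk data were not used here.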

Additional observations from a re-analysis of the deposited data

How the results depend on the processing

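No paired analysis was possible because each condition has 1 library and no result comes from a test. Of 726 values recomputed under another setting, 643 were kept, 73 moved and 10 reversed, meaning that a called ratio or a correlation changed sign. Another 6 ratios that had not been called also changed sign: 4 neighbouring RNA ratios after centring, Cdk1 RNA with control diff. SpG (0.11) and Cdk6 scATAC-seq on the nuclear scale (1.02). With control diff. SpG in place of undiff. SpG, the called log2 RNA ratio changed sign for Cdk2 (-0.26) and Cdkn1b (1.55), and, in an alternative chosen after seeing the data, the scATAC-seq ratio for Cdkn1a (0.868) and Cdkn1b (1.54). With control pL, also chosen later, the RNA ratio of Cdkn1b (0.59) and the scATAC-seq ratio of Cdkn1a (0.929) changed sign. Scaling over nuclear genes only, chosen later for correlations and counts but planned for the ratios, changed the sign of the RNA and scATAC-seq correlation of Cdk1 (0.39), Cdk4 (-0.18), Cdkn2d (0.18) and Wee1 (-0.29), and left 4751 of all genes with a scATAC-seq ratio of 0.8 or less, against 7617. The pseudocount decided how many genes were called. With 0.02, calls over the neighbouring steps came to 15 for the members, against 9, and 25249 for all genes, against 13190. For SpG Nfya-CKO over undiff. SpG it gave 2 higher members, 3 lower members (with Cdkn2c at -1.10), 1350 higher genes and 1166 lower genes, and over diff. SpG 1978 higher and 2708 lower genes. With 1, calls over the neighbouring steps came to 1 for the members (Cdkn1b from undiff. to diff. SpG) and 1257 for all genes. For SpG Nfya-CKO it gave 0 higher and 0 lower members against either control, with 43 higher and 45 lower genes over undiff. SpG and 65 higher and 132 lower genes over diff. SpG. Without diff. SpG and pL, the highest germ cell RNA moved to ES for Cdk2 (1.45) and to undiff. SpG for Cks1b (0.696), and for Wee1 the level at the new highest population was 0.750. Values from few UMIs are limited by depth, among them Cdkn2c in SpG Nfya-CKO (about 14.1 UMIs) and, in unknown cells, 5 members with about 1.57 to 6.88 UMIs.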
